A study of Mus musculus with 20 samples.

Results

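The genes examined were 9 transcripts that control the making and use of glucose in the liver: Pck1, G6pc, Fbp1, Slc2a2, Pklr, Ppargc1a, Foxo1, Tat and Igfbp1. They were taken by name, as every probe set that the platform annotation gives to one of these symbols, which made 20 of 45037 probe sets and 9 of 18193 genes on the array. All 9 passed the filter on dim genes that left 16054 genes for testing, and 19 of the 20 probe sets did. RNA came from the left lateral liver lobe of male CD-1 mice, an outbred stock, with 5 mice and 5 arrays in each of 4 groups. The PB 28d and PB 90d groups received phenobarbital sodium (PB) by mouth at 80 mg/kg/day for 28 or 90 days, and the CMC 28d and CMC 90d groups received the methylcellulose 15 vehicle (CMC) for as long. Livers were collected the day after the last dose. The age of the mice, their feeding state and the hour of collection are not given in the sources used here. Values are log2 signal intensities, on which 1 unit is a doubling.

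Between meals the liver makes glucose from lactate, glycerol and amino acids. Pck1, Fbp1 and G6pc encode enzymes that bypass the one-way steps of glycolysis, Slc2a2 (GLUT2) carries glucose across the hepatocyte membrane, and Pklr encodes the liver pyruvate kinase of the opposing, glycolytic direction. Glucagon, through cAMP, and glucocorticoids raise these gluconeogenic transcripts with the help of the coactivator Ppargc1a (PGC-1 alpha) and the forkhead factor Foxo1, which insulin removes from the nucleus; Igfbp1 is a classical insulin-repressed Foxo1 target and Tat a classical glucocorticoid- and cAMP-induced one. Phenobarbital activates the constitutive androstane receptor (Nr1i3), which is reported to repress gluconeogenesis, so the question put to the 4 groups was whether these transcripts were lower in PB livers.

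No such change passed the test. In a linear model (limma) with p-values adjusted over the 16054 genes by the method of Benjamini and Hochberg, 0 of the 9 genes were called at an adjusted p under 0.05 after 28 days, after 90 days, over both durations together or in the difference between the durations. The same rule called 0.0498%, 0.143%, 0.212% and 0% of all genes in these contrasts. The treatment itself was plain: Cyp2b10, the classical target of this receptor, lay at 9.03 to 11.68 in PB livers and 4.66 to 7.78 in CMC livers at 28 days, and at 10.54 to 12.23 in PB livers and 4.98 to 7.76 in CMC livers at 90 days (PB minus CMC 4.90 ± 0.62, adjusted p = 0.000572, and 5.88 ± 0.62, adjusted p = 2.79e-05, change ± SE). The receptor's own transcript Nr1i3 differed by 0.00 ± 0.27 (adjusted p = 0.9999) and 0.12 ± 0.27 (adjusted p = 0.895). What stood out in the 9 genes was how far single livers of one group lay apart and how closely several of the genes followed each other from liver to liver. Much of the latter rested on the 2 PB arrays described next, and genes outside the 9 followed some of the 9 more closely still.

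PB 28d replicate 5 and PB 90d replicate 3 stood apart from the other arrays: they scored -107.9 and -65.2 on the first principal component of all genes, which held 55.6% of the variance, and the next array scored -39.8. Both arrays also had a narrower spread of intensities. Their 25th percentiles were 4.262 and 4.125, against 3.963 to 4.111 in the other 18 arrays. Their 75th percentiles were 6.617 and 6.813, against 6.866 to 7.174. Their summed Kupffer cell markers (5 genes) were 12.046 and 11.395 on the log2 scale, against 9.904 to 11.913 in the other 18 arrays. The sum of the list set up for lymphocytes (4 of 5 genes measured) was 9.094 and 8.454, against 7.665 to 8.449. Ptprc was the brightest of these 4, at up to 8.568. Cd3e, Cd8a and Cd79a reached at most 6.322, 5.529 and 5.898 on any array, so this sum is not a measure of those 3 genes. PB 28d replicate 5 also lay outside the other 18 arrays for neutrophil markers (8.023, against 6.858 to 7.981) and for the sum of the red cell list (9.651, against 10.006 to 10.785). That last sum is nearly all Alas2, with a mean of 10.383 over the arrays, against 4.081 for Hba-a1 and 4.615 for Ermap. Their hepatocyte markers (6 of 8 measured) were 16.776 and 16.988, against 16.959 to 17.192, and all 6 were above the 25th percentile of the array on all 20 arrays, as in liver. Krt7 of bile duct cells and Hba-a1 of red cells passed that level on only 12. The part of these cell types, or of RNA or array quality, in the results was not tested. In whole liver RNA fewer cells of a type and less RNA per cell cannot be told apart. Because both arrays are PB arrays, the changes of the 9 genes are also given without them.

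The start regions of 4 of the genes are shown because their letters hold the short motifs by which cAMP and insulin control of this pathway is usually described. They were chosen for these letters, and other pairs of the 9 genes were more closely correlated from liver to liver. Each is the 250 bases before the RefSeq transcript start on build GRCm38.p6, 5′ to 3′ on the gene's strand: Ppargc1a at chr5:51567726-51567975 (minus strand), Pck1 at chr2:173152823-173153072 (plus), G6pc at chr11:101367466-101367715 (plus) and Igfbp1 at chr11:7197537-7197786 (plus). In Ppargc1a and Pck1 the capitals mark TGACG, one arm of the cAMP response element, which lies on the opposite strand and so reads CGTCA. In G6pc they mark TGTTTTG, a core of insulin response sequences, and TGTTTNC, a forkhead motif with an open base. In Igfbp1 they mark TGTTTTG on the opposite strand, which reads CAAAACA, and the like core TATTTTG.
Ppargc1a: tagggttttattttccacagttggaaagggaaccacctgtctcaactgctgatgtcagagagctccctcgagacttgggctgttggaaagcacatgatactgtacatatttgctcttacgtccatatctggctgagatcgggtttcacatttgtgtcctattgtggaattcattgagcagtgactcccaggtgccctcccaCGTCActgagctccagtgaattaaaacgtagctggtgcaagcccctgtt
Pck1: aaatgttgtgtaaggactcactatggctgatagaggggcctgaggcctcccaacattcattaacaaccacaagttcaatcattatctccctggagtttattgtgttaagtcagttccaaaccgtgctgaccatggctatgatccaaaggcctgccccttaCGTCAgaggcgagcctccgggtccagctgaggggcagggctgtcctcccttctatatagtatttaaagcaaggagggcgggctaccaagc
G6pc: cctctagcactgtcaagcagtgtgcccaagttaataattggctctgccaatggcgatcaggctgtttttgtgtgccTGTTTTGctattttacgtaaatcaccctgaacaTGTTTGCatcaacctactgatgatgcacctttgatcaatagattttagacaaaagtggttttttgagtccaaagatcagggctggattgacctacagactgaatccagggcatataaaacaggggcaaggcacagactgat
Igfbp1: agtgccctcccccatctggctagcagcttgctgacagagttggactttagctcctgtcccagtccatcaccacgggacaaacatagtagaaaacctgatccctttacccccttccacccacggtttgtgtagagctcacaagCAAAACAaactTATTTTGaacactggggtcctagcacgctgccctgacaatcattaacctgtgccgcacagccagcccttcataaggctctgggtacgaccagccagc
On either strand, TGACG occurred in 17.8% of the 32851 start regions of that length, TGTTTNC in 17.8%, TGTTTTG in 5.56% and TATTTTG in 3.95%, so that each alone is common, and a match is a description of letters only. Among the 10 start regions of the 9 genes (Pklr has a pair of them), TGACG was found in 2, TGTTTTG in 2, AGTTCA in 3 and AGGTCA, another short site of nuclear receptors, in 3, against 11.8% and 14.0% of all start regions for these last motifs. The full element TGACGTCA, the forkhead motif TGTTTAC, the E box CACGTG, the full glucocorticoid response element and its arm TGTTCT were in 0 of the 10. TGTTTTG and TATTTTG were added to the search after the sequences had been seen. TGACG lies within TGACGTCA, TGTTTAC is one form of TGTTTNC, and TGTTCT lies within the full glucocorticoid element.

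Pck1, the enzyme that turns oxaloacetate into phosphoenolpyruvate and the usual readout of gluconeogenic transcription, had nearly equal means with and without PB. At 28 days its log2 intensity was 12.35, 13.39, 12.80, 12.39 and 12.39 in PB livers and 12.21, 12.58, 12.18, 13.43 and 13.31 in CMC livers. At 90 days it was 12.51, 12.97, 11.94, 12.83 and 13.04 in PB livers and 12.29, 12.61, 12.73, 12.82 and 12.87 in CMC livers. The groups overlapped at both durations, and at 28 days the high livers included PB and CMC ones. PB minus CMC was -0.08 ± 0.26 at 28 days and -0.01 ± 0.26 at 90 days (SE, n = 5 per group). Over both durations it was -0.04 ± 0.19, adjusted p = 0.944, and the 95% confidence interval put PB livers at 0.742 to 1.27 times the CMC level. Without the 2 arrays that stood apart the changes were -0.01 at 28 days and 0.17 at 90 days. A dimmer probe set of Pck1 gave -0.10 ± 0.31 over both durations and followed the main one over the 20 arrays with r = 0.674; the third lay near background, with group means between 3.80 and 4.18, and was not tested.

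G6pc, the glucose-6-phosphatase that releases free glucose, was equally without a detectable change. At 28 days its log2 intensity was 11.28, 11.73, 11.97, 11.86 and 10.24 in PB livers and 11.40, 11.64, 11.86, 12.06 and 11.76 in CMC livers. The 90-day values were 12.27, 12.21, 10.98, 11.38 and 11.33 in PB livers and 12.59, 11.46, 11.39, 10.82 and 10.92 in CMC livers. One PB liver was far below the rest at 28 days, and at 90 days the highest single value belonged to a CMC liver. PB minus CMC was -0.33 ± 0.34 at 28 days, 0.20 ± 0.34 at 90 days and -0.06 ± 0.24 over both (adjusted p = 0.932), an interval of 0.674 to 1.36 times the CMC level. Without the 2 arrays the 28-day change was -0.04, the 90-day change 0.36 and the change over both 0.16.

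Fbp1, the fructose-1,6-bisphosphatase, was the steadiest of the 9 and the one whose 90-day groups came nearest to separating. At 90 days its log2 intensity was 13.52, 13.46, 13.88, 14.04 and 13.83 in PB livers and 14.23, 13.99, 14.14, 14.25 and 13.99 in CMC livers. Of the 5 PB livers, 4 lay below every CMC liver. The change was -0.37 ± 0.13 (95% interval -0.64 to -0.10, unadjusted p of 0.00901), which did not pass after adjustment over all genes (adjusted p = 0.816). Fbp1 was the 1 member of 9 with an unadjusted p under 0.05 at 90 days, a level that 4.53% of all genes reached. At 28 days its means were the same to the second decimal, 13.89 ± 0.18 in PB and 13.89 ± 0.25 in CMC livers (SD, n = 5 each), with a change of -0.0005 ± 0.13. The 90-day effect minus the 28-day effect was -0.37 ± 0.18 (unadjusted p of 0.0546, adjusted p = 1), so a difference between the durations was not detected. The 90-day change was -0.41 without the 2 arrays that stood apart, and the difference between the durations was then -0.46 (unadjusted p of 0.0230, adjusted p = 0.976). PB 90d replicate 3, at 13.88, was one of the 4 low PB livers.

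**Figure D1:**
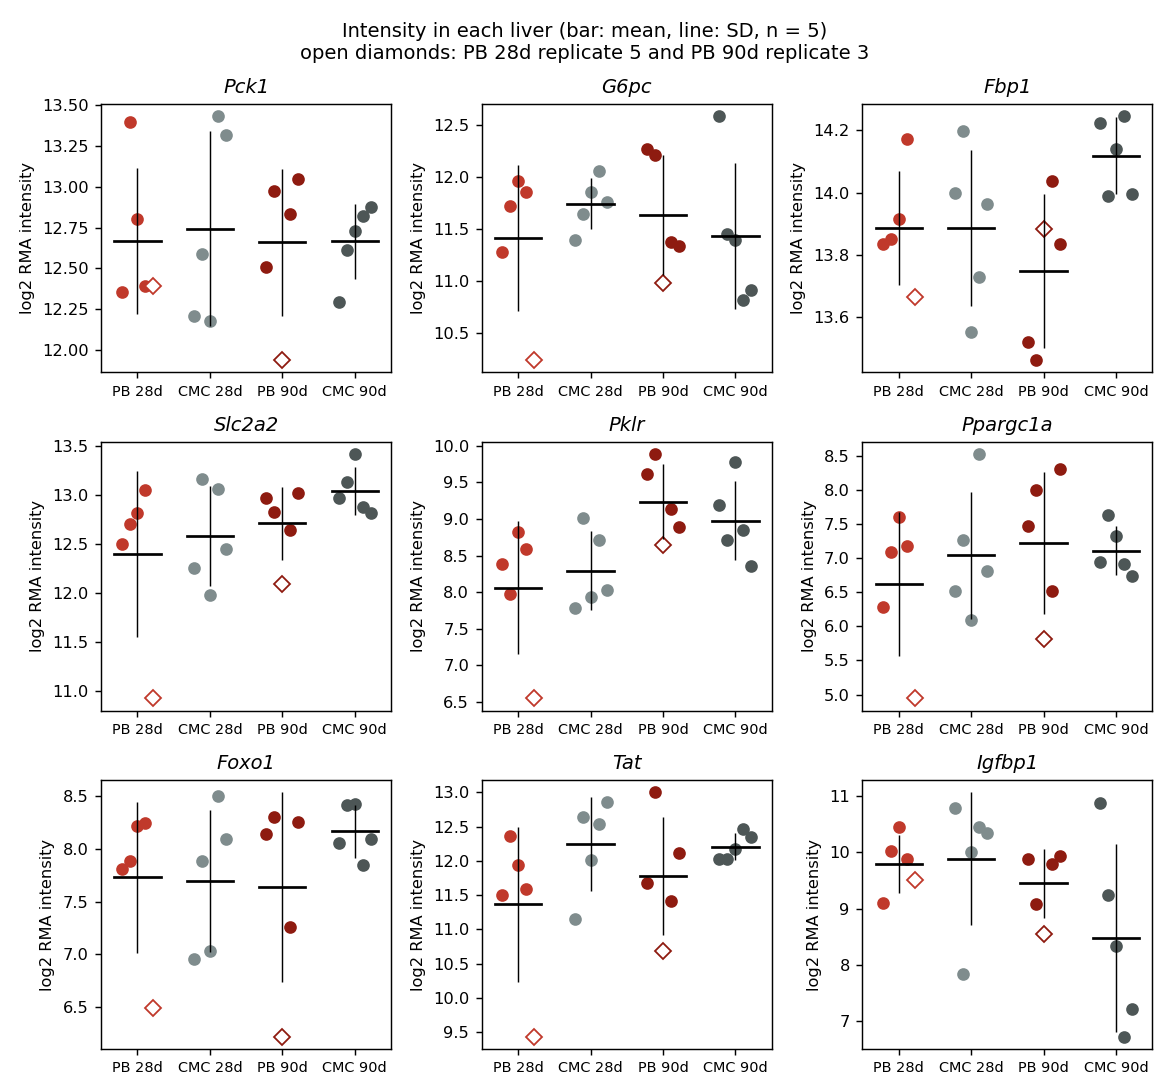
Log2 RMA intensity of each of the 9 genes in every liver, by group (PB 28d, CMC 28d, PB 90d and CMC 90d, 5 livers each), with the mean as a bar, the SD as a line and the arrays PB 28d replicate 5 and PB 90d replicate 3 as open diamonds; each panel has its own log2 axis. The PB and CMC points of a duration overlap in every panel, the Fbp1 axis spans the narrowest range, and the open diamonds are the lowest points of their own groups for G6pc, Slc2a2, Pklr, Ppargc1a, Foxo1 and Tat.

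Slc2a2, the glucose transporter of hepatocytes, ran from 10.92 to 13.05 in PB livers and 11.98 to 13.16 in CMC livers at 28 days, with a median of 12.71 in PB and 12.45 in CMC livers. At 90 days it ran from 12.09 to 13.02 in PB livers and 12.82 to 13.42 in CMC livers, with a median of 12.82 in PB and 12.97 in CMC livers. The lowest value at each duration came from the PB array that stood apart. Its PB minus CMC change was -0.18 ± 0.31 at 28 days and -0.33 ± 0.31 at 90 days, and 0.19 and -0.18 without these arrays. Over both durations the change was -0.26 ± 0.22 (adjusted p = 0.736, 0.607 to 1.16 times the CMC level), and 0.0059 without them.

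Pklr, the liver pyruvate kinase whose transcript carbohydrate raises, had no detectable PB change either. At 28 days its log2 intensity was 8.38, 7.97, 8.83, 8.59 and 6.55 in PB livers and 7.79, 9.01, 7.93, 8.72 and 8.03 in CMC livers. The values at 90 days were 9.62, 9.89, 8.65, 9.13 and 8.89 in PB livers and 9.19, 8.72, 9.77, 8.85 and 8.35 in CMC livers. PB and CMC livers overlapped at both durations, while the 90-day means lay above the 28-day means in both treatments. The change was -0.23 ± 0.38 at 28 days, 0.26 ± 0.38 at 90 days and 0.01 ± 0.27 over both (adjusted p = 0.987, 0.686 to 1.48 times the CMC level). With the 2 arrays that stood apart left out the changes were 0.15 at 28 days, 0.40 at 90 days and 0.28 over both. The other Pklr probe sets gave 0.03 ± 0.18 and 0.07 ± 0.10 over both durations, and one of them followed the main probe set with r = 0.946 and the other with r = 0.437.

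Ppargc1a, the coactivator that fasting induces, varied widely between livers of one group. At 28 days its log2 intensity was 6.29, 7.09, 7.60, 7.18 and 4.94 in PB livers and 6.52, 7.27, 6.09, 8.52 and 6.81 in CMC livers. After 90 days the values were 7.48, 7.996, 5.81, 6.51 and 8.31 in PB livers and 6.95, 7.64, 7.33, 6.92 and 6.73 in CMC livers. The livers of both PB groups and of the 28-day CMC group lay far wider apart than those of the 90-day CMC group. The PB minus CMC change was -0.42 ± 0.51 at 28 days, 0.11 ± 0.51 at 90 days and -0.16 ± 0.36 over both (adjusted p = 0.894, 0.533 to 1.51 times the CMC level). Without the 2 arrays the 28-day change was -0.0035 and the 90-day change 0.46. Its 5 probe sets followed each other with r between 0.755 and 0.938 over the 20 arrays, and their changes over both durations lay between -0.16 and 0.04.

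Foxo1, the forkhead factor that insulin signalling switches off, gave 7.81, 7.88, 8.22, 8.25 and 6.49 in PB livers and 6.96, 7.89, 7.04, 8.50 and 8.09 in CMC livers at 28 days. At 90 days it gave 8.14, 8.31, 6.22, 7.26 and 8.26 in PB livers and 8.06, 8.42, 8.43, 7.85 and 8.10 in CMC livers. The low PB value at each duration was again the array that stood apart. The changes were 0.04 ± 0.40 at 28 days, -0.53 ± 0.40 at 90 days and -0.25 ± 0.28 over both (adjusted p = 0.774, 0.562 to 1.26 times the CMC level), and 0.35, -0.18 and 0.08 without the 2 arrays. The direction at 28 days differed between probe sets: 2 others of Foxo1 gave -0.45 and -0.14 there and followed the main one with r = 0.913 and 0.908. The fourth, at group means of 4.23 to 4.54, ran against the main one (r = -0.48).

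Tat, the tyrosine aminotransferase that feeds amino acid carbon into the pathway, had the most negative PB minus CMC values of the 9 genes over both durations. Its log2 intensity at 28 days was 11.50, 12.36, 11.93, 11.59 and 9.44 in PB livers and 11.15, 12.64, 12.01, 12.54 and 12.86 in CMC livers. At 90 days it was 11.68, 12.998, 10.68, 11.42 and 12.11 in PB livers and 12.03, 12.03, 12.17, 12.46 and 12.35 in CMC livers. The groups overlapped at both durations, although 3 of the 5 PB livers lay below every CMC liver at 90 days. PB minus CMC was -0.88 ± 0.45 at 28 days (95% interval -1.82 to 0.07, unadjusted p of 0.0685, adjusted p = 0.9999) and -0.43 ± 0.45 at 90 days (adjusted p = 0.822). Over both durations it was -0.65 ± 0.32 (unadjusted p of 0.056, adjusted p = 0.72, 0.400 to 1.01 times the CMC level). The sizes rested largely on the 2 arrays: without them the changes were -0.39 at 28 days, -0.15 at 90 days and -0.27 over both, with unadjusted p-values of 0.227, 0.628 and 0.233 in that order.

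Igfbp1, the insulin-repressed binding protein of insulin-like growth factors, varied most between livers of one group. At 28 days its log2 intensity was 9.10, 10.03, 10.45, 9.89 and 9.52 in PB livers and 10.78, 7.83, 10.0005, 10.45 and 10.35 in CMC livers. After 90 days the values were 9.89, 9.09, 8.55, 9.79 and 9.94 in PB livers and 10.89, 9.24, 8.34, 6.73 and 7.21 in CMC livers. The 90-day CMC group held both the highest and the lowest value of the 20 livers, and the PB values lay between them. PB minus CMC was -0.09 ± 0.63 at 28 days and 0.97 ± 0.63 at 90 days (95% interval -0.33 to 2.28, unadjusted p of 0.136, adjusted p = 0.816), and the difference between these effects was 1.06 ± 0.88 (adjusted p = 1). CMC 90d replicate 1, the highest liver, decided much of this value: without it the 90-day change was 1.57 (unadjusted p of 0.00922, adjusted p = 0.780), and without the 2 PB arrays that stood apart it was 1.20 (adjusted p = 0.999), with -0.02 at 28 days. Over both durations the change was 0.44 ± 0.44 (adjusted p = 0.758, 0.716 to 2.57 times the CMC level), and 0.59 without the 2 arrays.

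At an unadjusted p under 0.05 there were 0 of 9 at 28 days (2.86% of all genes), 1 at 90 days (4.53%), 0 over both (6.6%) and 0 for the difference (1.38%). No gene of the 9 had PB and CMC groups that did not overlap at 28 days, where 0.542% of all genes did, or at 90 days, where 1.07% did. The change was positive for 1 of 9 genes at 28 days, against 49.6% of all genes, for 4 of 9 at 90 days, against 56.2%, for 2 of 9 over both durations, against 55.8%, and for 6 of 9 in the difference between durations, against 52.3%. The median change of the 9 was -0.18 at 28 days and -0.006 at 90 days, beside -0.002 and 0.033 over all genes, and since several of the genes varied together from liver to liver these directions are not 9 separate observations. They also turned without the 2 arrays that stood apart: the change was then positive for 4 of 9 genes at 28 days, 5 of 9 at 90 days and 7 of 9 over both durations, beside 55.1%, 51.5% and 53.4% of all genes. The median change of the 9 was then -0.0035 at 28 days, 0.174 at 90 days and 0.0835 over both, beside 0.020, 0.005 and 0.009 over all genes. Both arrays left out were PB arrays, and the lowest of their groups for G6pc, Slc2a2, Pklr, Ppargc1a, Foxo1 and Tat. Leaving them out could only raise the PB means of these genes, so the turn is not separate evidence on direction. The next arrays on the first principal component, CMC 28d replicates 1 and 3 (-39.8 and -36.4), were kept.

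**Figure D2:**
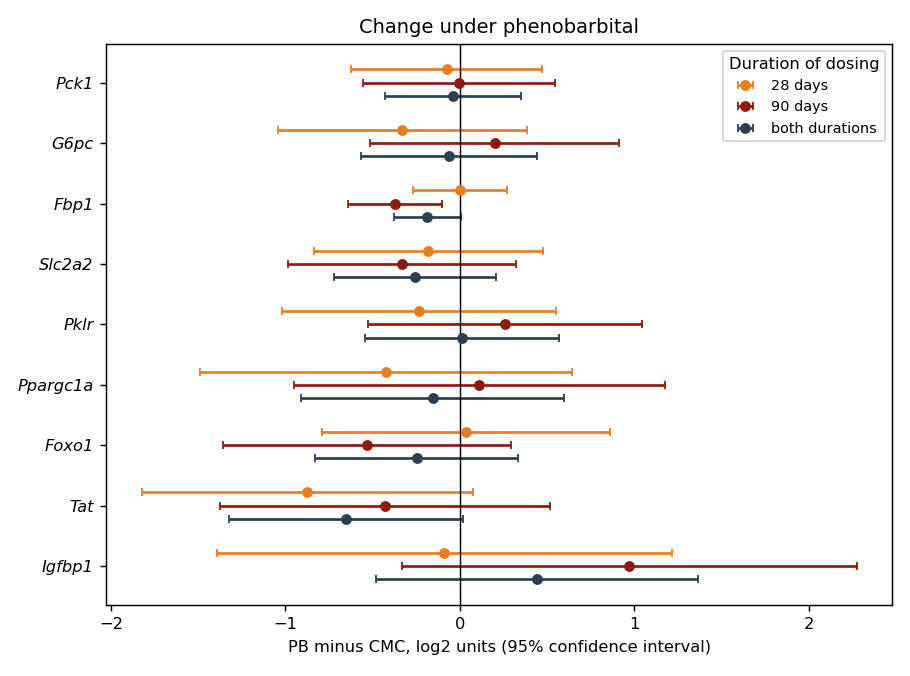
PB minus CMC change of each gene in log2 units at 28 days, at 90 days and over both durations, as points with 95% confidence intervals from the linear model. Among the intervals drawn only that of Fbp1 at 90 days (-0.64 to -0.10) leaves out 0; those of Fbp1 are the narrowest and those of Igfbp1 the widest.

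The contrasts of duration, 90 against 28 days, also called 0 of the 9 genes, beside 0.00623% of all genes among PB livers and 0% among CMC livers. Among PB livers Pklr was higher at 90 days, with a mean of 9.24 ± 0.51 against 8.06 ± 0.90 at 28 days (SD, n = 5 each). Of the 5 PB livers at 90 days, 4 lay above every PB liver at 28 days, and the difference of 1.17 ± 0.38 had an unadjusted p of 0.00551 and an adjusted p of 0.971. It was the 1 of 9 genes with an unadjusted p under 0.05 there, beside 4.23% of all genes, and it was 0.94 without the 2 arrays. The size depended on the probe set: the other Pklr probe sets gave 0.61 and 0.29 here, and their average with the main one 0.69. Among CMC livers Pklr differed by 0.68 ± 0.38 (adjusted p = 0.636), so both treatments had the higher mean at 90 days. The size again depended on the probe set: the other Pklr probe sets gave 0.32 ± 0.25 and 0.016 ± 0.14 among CMC livers, the last near no change. Igfbp1 was the 1 of 9 among CMC livers, beside 5.69% of all genes: it lay at 8.48 ± 1.66 at 90 days and 9.89 ± 1.18 at 28 days, a difference of -1.40 ± 0.63 (unadjusted p of 0.0363, adjusted p = 0.636), and -2.004 without CMC 90d replicate 1. Among CMC livers 3 of 9 reached that level without the 2 PB arrays, which also enter the shared estimate of the spread (Slc2a2, Pklr and Igfbp1, adjusted p = 0.279 each), beside 17.5% of all genes. The change from 28 to 90 days was positive for 5 of 9 genes among PB livers, against 50.3% of all genes, and for 5 of 9 among CMC livers, against 45.8%. In both contrasts 0 of the 9 genes had groups that did not overlap, beside 0.635% of all genes among PB livers and 2.33% among CMC livers.

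Most of the 9 genes varied between livers of one group far more than a typical transcript. The SD within groups, pooled over the 4 groups, was 1.09 log2 units for Igfbp1, higher than in 99.4% of the genes tested, 0.89 for Ppargc1a (98.0%), 0.79 for Tat (96.6%), 0.68 for Foxo1 (93.5%) and 0.64 for Pklr (92.0%). G6pc (0.59), Slc2a2 (0.54) and Pck1 (0.45) lay at the 89.1, 86.6 and 79.4 percentiles. Fbp1, at 0.21, was the exception, at the 24.5 percentile, and it was also the gene with the narrowest confidence intervals. From the lowest to the highest of the 20 livers Igfbp1 spanned 17.8-fold, Ppargc1a 12.0-fold, Tat 11.8-fold and Pklr 10.1-fold, while Pck1 spanned 2.82-fold and Fbp1 1.73-fold. The lowest livers of Ppargc1a (4.94), Tat (9.44) and Pklr (6.55) were PB 28d replicate 5, and that of Pck1 (11.94) was PB 90d replicate 3. In the other 18 arrays the lowest values of these genes were 6.09, 11.15, 7.79 and 12.18, with the highest unchanged. The ranges of Igfbp1 and Fbp1 were the same without the 2 arrays. The SDs above include both arrays.

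Much of this spread was shared. After the mean of its group had been taken from each value, 19 of the 36 pairs among the 9 genes were correlated over the 20 livers at an adjusted p under 0.05 (Pearson's r, permutation of livers within groups, 100000 resamples, adjusted over the 36 pairs), and all 19 were positive; 14 also passed by Spearman's rho. The lowest r among the 19 was 0.576, a value that 11.5% of all pairs of the 16054 genes reached or exceeded, and without the 2 arrays that stood apart 7 of the 36 pairs reached it, beside 6.64% of all pairs. Ppargc1a and Foxo1, the coactivator and the forkhead factor, formed the tightest pair, with r = 0.92 and rho = 0.907 (permutation p = 1e-05, the smallest the resampling can give, adjusted p = 0.00036) and r = 0.891 without the 2 livers farthest from the median of Ppargc1a. Slc2a2 followed Pklr (r = 0.858, rho = 0.842), Ppargc1a (r = 0.855, rho = 0.836) and Foxo1 (r = 0.847, rho = 0.805), with permutation p of 3e-04, 2e-05 and 3e-05 and adjusted p of 0.0027, 0.00036 and 0.00036 for r. Tat followed Foxo1 with r = 0.811 (permutation p = 0.0011, adjusted p = 0.0077) and rho = 0.717 (p = 0.0039, adjusted p = 0.016). Fbp1 was in none of the 19 pairs, its highest r being 0.327 with Slc2a2, and Igfbp1 was in 1.

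The 2 arrays that stood apart carried much of this. Without both, 2 of the 36 pairs passed, Ppargc1a with Foxo1 (r = 0.858, adjusted p = 0.0079) and Slc2a2 with Ppargc1a (r = 0.767, adjusted p = 0.012), although r stayed at 0.766 for Slc2a2 with Foxo1 (adjusted p = 0.051) and 0.689 for Slc2a2 with Pklr (adjusted p = 0.053). Without PB 28d replicate 5 alone 8 pairs passed, and without PB 90d replicate 3 alone 10. The scatter also followed the main axis of the whole arrays: r with the first principal component was 0.912 for Foxo1, 0.874 for Tat, 0.854 for Slc2a2, 0.789 for Ppargc1a and 0.785 for Pklr, but 0.594 for G6pc, 0.479 for Pck1, 0.096 for Fbp1 and -0.019 for Igfbp1. These r were lower without the 2 arrays, at 0.814 for Foxo1, 0.656 for Tat, 0.587 for Slc2a2, 0.545 for Ppargc1a, 0.546 for Pklr and 0.153 for G6pc. With that component taken out of the values 0 of the 36 pairs passed, and the highest remaining r were 0.796 for Ppargc1a with Foxo1 and 0.73 for G6pc with Igfbp1 (adjusted p = 0.051 each).

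Pck1 and G6pc, the enzymes at either end of the pathway, showed no detectable correlation (r = 0.155, rho = 0.132, adjusted p = 0.68 for r). Pck1 instead followed Tat, with r = 0.668 (permutation p = 0.0073, adjusted p = 0.023) and rho = 0.708 (p = 0.0039, adjusted p = 0.016), r = 0.555 without the 2 livers farthest from the Pck1 median, and r = 0.695 without the 2 arrays that stood apart (adjusted p = 0.051). By r it was also correlated with Foxo1 (r = 0.648, adjusted p = 0.026) and Ppargc1a (r = 0.622, adjusted p = 0.03), but not by rho (adjusted p = 0.056 for Foxo1 and 0.076 for Ppargc1a), and the r of Pck1 with Ppargc1a passed in 13 of 20 removals of a single array. G6pc was correlated with Igfbp1, with r = 0.576 (permutation p = 0.0084, adjusted p = 0.023) and rho = 0.463 (p = 0.049, adjusted p = 0.098). That relation rested in part on single livers: r was 0.362 without CMC 90d replicate 1, where both genes were highest, 0.466 without the 2 livers farthest from the G6pc median, and 0.622 without the 2 arrays (adjusted p = 0.14). Without PB 90d replicate 3 the adjusted p of Pck1 with Tat was 0.074.

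**Figure D3:**
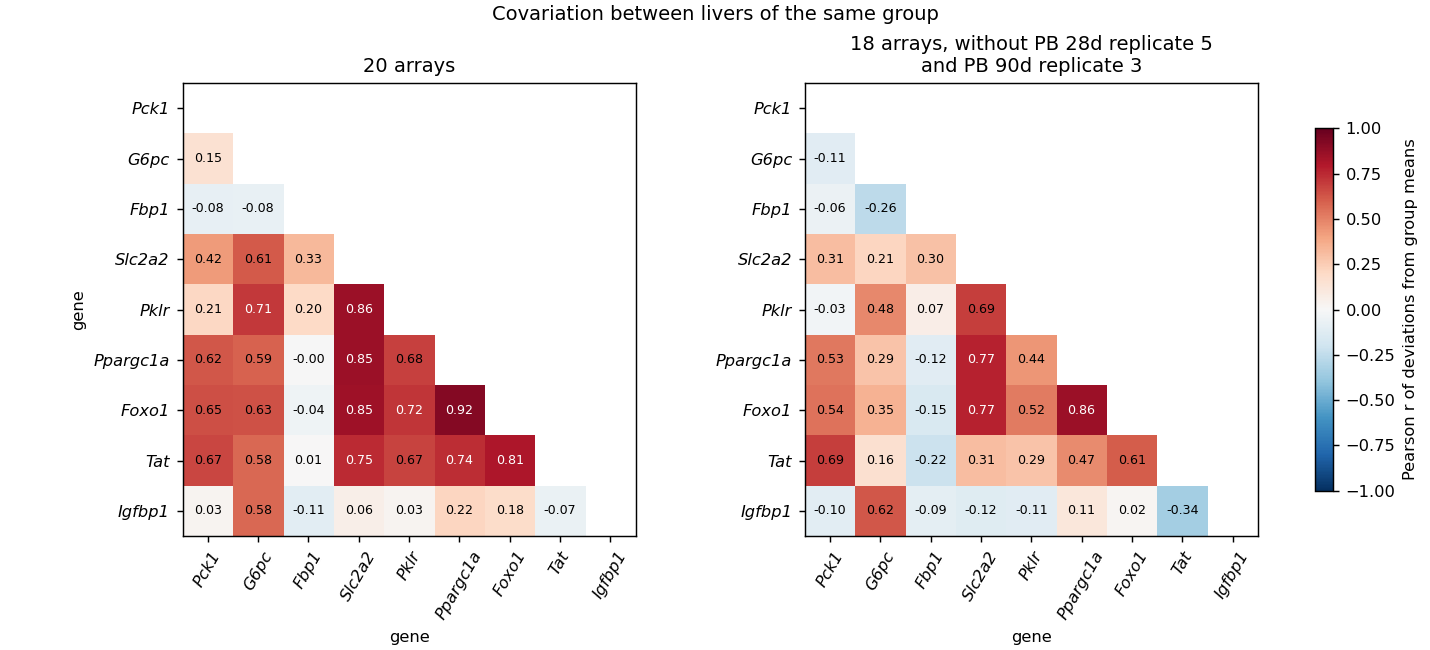
Pearson's r between the deviations from group means for each pair of the 9 genes, over all 20 arrays (left) and over 18 arrays without PB 28d replicate 5 and PB 90d replicate 3 (right); red is positive and blue negative. The block of high values around Slc2a2, Pklr, Ppargc1a, Foxo1 and Tat on the left thins on the right, where Ppargc1a with Foxo1 keeps 0.86 and G6pc with Igfbp1 has 0.62, and the Fbp1 cells are pale in both.

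**Figure D4:**
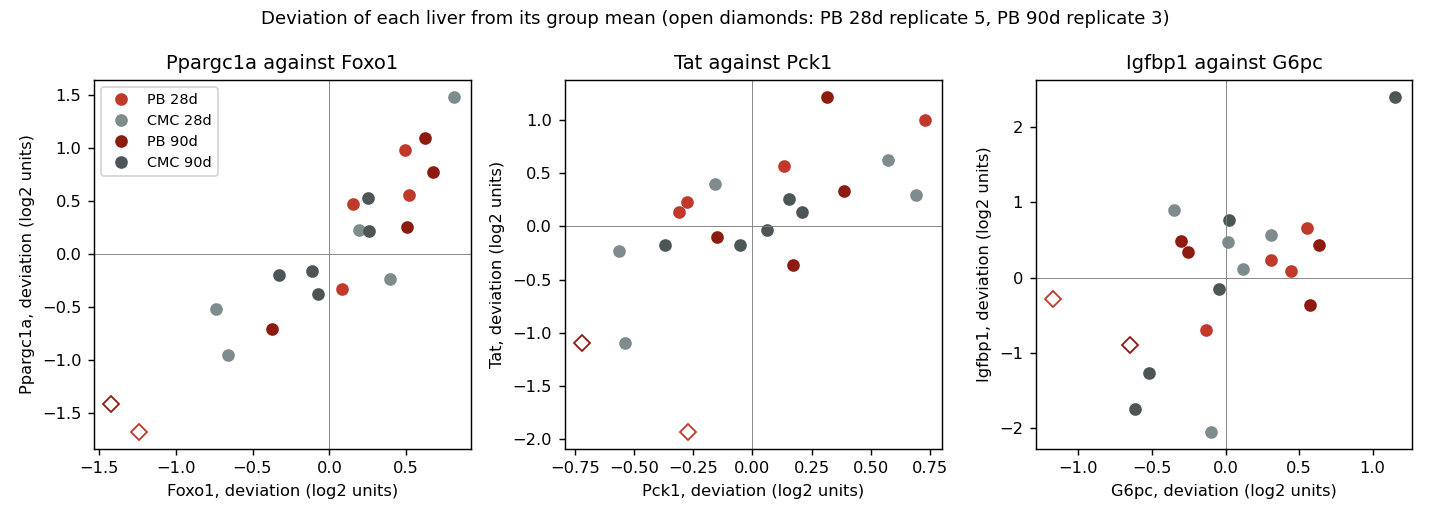
Deviation of each liver from its group mean, in log2 units, for Ppargc1a against Foxo1, Tat against Pck1 and Igfbp1 against G6pc; points are livers coloured by group, and open diamonds are the arrays PB 28d replicate 5 and PB 90d replicate 3. In the first panel the 18 other livers also lie along a line (r = 0.858 without the diamonds), while in the third a single CMC 90d liver at the upper right stands far from the rest.

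Set against all genes tested, the transcripts most like each of the 9 from liver to liver, by r of the same deviations over 20 arrays, differed from gene to gene. Pck1 was most like Zbtb16 (0.797), Bcl6 (0.773) and Il6ra (0.752), and r was 0.739, 0.705 and 0.719 without the 2 arrays. G6pc was most like Tmem82, Seh1l and Galt (0.811 to 0.813, and 0.65 to 0.708 without the 2 arrays). Fbp1 was most like Hoxb2 (0.882), Krt16 and Fam78a, dim transcripts with mean intensities of 4.38 to 5.48. These r are the highest of 16054 and carry no p.
For the genes along the main axis the values were higher: Foxo1 with Abcc3 (0.978), Dnmbp (0.969) and Tenm3 (0.966), Slc2a2 with Hadha (0.962), Smc6 (0.95) and Tmem106b (0.949), Ppargc1a with Lpin2 (0.936), Mtx3 (0.93) and Slc7a2 (0.927), Tat with Pla2g15 (0.94), Mknk2 (0.932) and Xpnpep1 (0.931), and Pklr with Ddhd2 (0.936), Btbd2 (0.922) and Inpp5a (0.914). Igfbp1 was most like Ackr1 (0.768), Zfand5 (0.762) and Napb (0.737). Without the 2 arrays the r with the same partners were 0.923 to 0.945 for Foxo1, 0.835 to 0.895 for Slc2a2 and 0.857 to 0.876 for Ppargc1a. They were then 0.815 to 0.837 for Tat, 0.858 to 0.885 for Pklr, 0.755 to 0.771 for Igfbp1 and 0.809 to 0.894 for Fbp1.

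The other genes of the pathway gave no call either. Over 6 lists with 148 genes, of which 136 were measured and 135 tested, 0 genes were called at any duration, over both durations, in the difference between them or between 90 and 28 days. For PB against CMC over both durations 13 of the 135 (9.63%) had an unadjusted p under 0.05, against 6.6% of all genes, and the smallest adjusted p was 0.585. At either single duration there were 6 of 135 (4.44%). The list genes with no measured probe set were not analysed here. All 6 lists were chosen with earlier results of these data known, so their shares beside all genes are not independent evidence.

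Among other gluconeogenic enzymes and those that supply substrate, 0 of 20 tested reached an unadjusted p under 0.05 over both durations, and the median change was -0.075, beside 0.023 over all genes. The nearest were Gpt2, the mitochondrial alanine aminotransferase, at -0.31 ± 0.18 and Ldha, a lactate dehydrogenase subunit, at -0.26 ± 0.15 (adjusted p = 0.72 each). Of 24 glycolytic and pyruvate enzymes, 3 were higher and 1 lower at that level (16.7%, beside 6.6% of all genes), with a median of -0.013. Pfkfb3, which makes the glycolysis activator fructose-2,6-bisphosphate, averaged 5.07 ± 0.67 in PB and 5.92 ± 0.98 in CMC livers at 28 days and 5.00 ± 0.19 in PB and 6.26 ± 1.28 in CMC livers at 90 days (SD, n = 5 each). That was a change of -1.06 ± 0.35 over both durations (adjusted p = 0.585), at an intensity not far above the 25th percentile of the arrays (3.96 to 4.26). Pkm, the pyruvate kinase of muscle and dividing cells, differed by 0.23 ± 0.08 (adjusted p = 0.597).

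Of 34 regulators of hepatic glucose genes, 1 was higher and 1 lower at an unadjusted p under 0.05 over both durations, and 9 of 34 changes were positive, with a median of -0.205, beside 55.8% and 0.023 over all genes. Kat2a, the acetyltransferase GCN5 that acts on PGC-1 alpha, differed by 0.37 ± 0.14 (adjusted p = 0.672) and Cebpb, a factor at the Pck1 promoter, by -0.67 ± 0.31 (adjusted p = 0.72). Of 22 genes of insulin and glucagon signalling, 0 were higher and 1 lower, 5 of 22 changes were positive and the median was -0.20. Igf1, the circulating growth factor of the liver, differed by -0.14 ± 0.06 and Pik3r1, a regulatory subunit of the insulin-driven lipid kinase, by -0.73 ± 0.36 (adjusted p = 0.72 each). These directions turned without the 2 arrays that stood apart: 20 of 34 changes of the regulators and 13 of 22 of the signalling genes were then positive over both durations, beside 53.4% of all genes, with medians of 0.021 and 0.013, beside 0.009 over all genes. Only PB arrays were left out there, and all CMC arrays were kept. At 28 days, without the 2 arrays, 25 of 34 regulators and 18 of 22 signalling genes were positive (medians 0.142 and 0.186), beside 55.1% of all genes. At 90 days 10 of 34 and 6 of 22 then were (medians -0.148 and -0.090), beside 51.5%. With all arrays the counts were 8 of 34 and 5 of 22 at 28 days (49.6% of all genes) and 9 of 34 and 4 of 22 at 90 days (56.2%). In the difference between the durations 0 of these genes were called, and a difference of the counts was not tested. Genes of a list can vary together from liver to liver, so their signs are not separate observations. Of 17 glycogen genes, 1 was higher and 0 lower, with a median of -0.115; Ugp2, which makes UDP-glucose, differed by 0.33 ± 0.15 and Gsk3b, a kinase that inhibits glycogen synthase, by -0.68 ± 0.40 (adjusted p = 0.72 each).

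Among 18 glucocorticoid-responsive genes, a list set up because glucocorticoids act on Tat and Pck1, 2 were higher and 3 lower at an unadjusted p under 0.05. That was 27.8% of the list, beside 6.6% of all genes, and the median was -0.084, beside 0.023 over all genes. The list was chosen with earlier results of these data known, so this share is not independent evidence. The rule for named genes took the 2 smallest p of the list, so the 3 lower genes are not named here. The higher ones were the metallothioneins Mt1 and Mt2, metal-binding proteins that glucocorticoids and metals induce. Mt1 averaged 11.90 ± 0.86 in PB and 10.38 ± 2.58 in CMC livers at 28 days and 11.97 ± 0.70 in PB and 9.56 ± 1.996 in CMC livers at 90 days. The SD was wider in the CMC group at each duration. Over both durations Mt1 differed by 1.96 ± 0.69 (adjusted p = 0.622) and Mt2 by 1.96 ± 0.72 (adjusted p = 0.632), the largest differences among the list genes named. Without the 2 arrays that stood apart 3 genes of this list were higher and 3 lower at an unadjusted p under 0.05, beside 5.46% of all genes at that level, and the median change of all 6 lists over both durations was positive, between 0.013 and 0.145, where it was negative for all 6 over the 20 arrays. Of the 12 list genes named, all 12 kept their direction without these arrays, but Gpt2 (-0.13), Ldha (-0.15), Cebpb (-0.33), Pik3r1 (-0.30) and Gsk3b (-0.13) were smaller by more than 1.5 times, while Pfkfb3 (-1.01), Mt1 (1.95) and Mt2 (1.95) were nearly as large.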

How the data were processed

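Each array measured RNA from 1 mouse on an Affymetrix 3' expression platform with biotin labelling. The deposited values are log2 intensities that the authors made with RMA, per the submitters' processing notes (version not given in the sources used here). RMA corrects background, equalises probe distributions between arrays and combines the probes of a probe set. It compresses differences where a probe set is near background or saturation. The deposited probe set values were not equally distributed: the 25th percentile of the arrays ran from 3.963 to 4.262 and the 75th from 6.617 to 7.174. Values were used as deposited. Of 45037 probe sets, 34945 had 1 gene symbol in the platform annotation. The probe set with the highest mean stood for a gene (18193 genes), and genes above the array's 25th percentile on at least 5 arrays were tested (16054).

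Groups and replicate numbers came from the sample titles, with 0 columns unused. The numbers did not pair the mice: deviations of same-numbered arrays correlated between -0.686 and 0.613. One mean per group was fitted to all 20 arrays with limma 3.58.1 (R 4.3.3), letting the variance prior follow intensity, with 16 residual degrees of freedom. Tests were two-sided, with Benjamini-Hochberg adjustment across the genes that passed the filter. Mice were separate animals, so p-values measure the spread between mice; arrays give no counts, and their number limits precision. The model was tested on simulated data. Correlations used deviations from group means. Start regions came from RefSeq (GRCm38.p6), where 9 of 9 genes matched by gene identifier. Plots used matplotlib 3.10.9 (Python 3.11.15).

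The 9 genes, the gene lists and the motifs were chosen with earlier results of these data known. The rule for named genes took the 9 in every contrast, Cyp2b10 and Nr1i3, the called genes of each of 6 lists or else the 2 with the smallest p over both durations, and the 3 genes most like each of the 9. Cell types were checked by summed marker levels. Alternatives covered filters, probe set choice, trend, the groups fitted, centring, cyclic loess, the replicate block, the 2 arrays that stood apart, the first principal component and each array left out; correlations with each array left out, the lists under these settings and the share of all gene pairs were added after the data were seen.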

Additional observations from a re-analysis of the deposited data

Results flagged for a closer look

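Of the 36 sets of 5 livers formed by the 9 genes and 4 groups, 3 held a liver farther from its neighbours than Dixon's 95% critical value of 0.71 allows, and chance alone gives about 1 in 20. Both PB flags belong to 1 array, PB 28d replicate 5, one of the 2 that stood apart: Slc2a2 was 10.92 there, against 12.51 to 13.05 in the other PB livers at 28 days, and Foxo1 was 6.49, against 7.81 to 8.25. Without the 2 arrays the 28-day PB minus CMC change was 0.19 for Slc2a2 and 0.35 for Foxo1, against -0.18 and 0.04 with them. Igfbp1 was 7.83 in CMC 28d replicate 2, against 10.0005 to 10.78 in the other CMC livers at 28 days; without that array the 28-day change of Igfbp1 was -0.60, against -0.09 with it.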

How the results depend on the processing

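Under every alternative tried, 0 of the 9 genes and 0 of the list genes were called in any contrast, while the calls over all genes ran from 4 to 17 for PB against CMC at 28 days, 17 to 33 at 90 days and 26 to 51 over both durations. With the replicate number as a block, 0 of the 9 genes were called, and no call changed; a fit of only the groups of a contrast gives no value over both durations or for their difference. The 19 correlated pairs became 2 without the 2 arrays that stood apart and 0 with the first principal component removed, and ran from 8 (without PB 28d replicate 5) to 19 with each array left out in turn. The 9 genes' changes, none of them called, took the opposite sign in the settings below, and the cause was not tested. With a gene taken as the average of its probe sets they were Foxo1 -0.10 at 28 days, and Ppargc1a -0.022 at 90 against 28 days among CMC livers. With the _x_at and _s_at probe sets left out they were Foxo1 -0.45 at 28 days, and Foxo1 0.45 at 90 against 28 days among PB livers. With arrays centred on their 75th percentile they were Fbp1 0.048 at 28 days, Pck1 0.087 at 90 days, Pck1 0.030 and G6pc 0.0064 over both durations, and Ppargc1a -0.051 at 90 against 28 days among CMC livers. With cyclic loess between arrays they were Ppargc1a -0.013 at 90 against 28 days among CMC livers. Without the 2 arrays that stood apart they were Fbp1 0.055, Slc2a2 0.19 and Pklr 0.15 at 28 days, Pck1 0.17 at 90 days, Pck1 0.083, G6pc 0.16, Slc2a2 0.0059, Ppargc1a 0.23 and Foxo1 0.084 over both durations, and Pck1 0.10 at 90 against 28 days among PB livers. With the first principal component as a covariate they were Fbp1 0.0053 at 28 days, Pck1 0.15 and Tat 0.065 at 90 days, Pck1 0.067, G6pc 0.11, Ppargc1a 0.20 and Foxo1 0.062 over both durations, Slc2a2 0.043 in the difference between durations, and Ppargc1a -0.54 and Foxo1 -0.059 at 90 against 28 days among CMC livers. With each array left out in turn the ranges that took both signs were Fbp1 -0.085 to 0.077, Foxo1 -0.15 to 0.35, Igfbp1 -0.60 to 0.14, Pck1 -0.26 to 0.10, Slc2a2 -0.34 to 0.19 and Pklr -0.42 to 0.15 at 28 days, and Pck1 -0.10 to 0.17 and Ppargc1a -0.16 to 0.46 at 90 days. They were Pklr -0.083 to 0.20, Pck1 -0.13 to 0.049, Ppargc1a -0.29 to 0.054 and G6pc -0.14 to 0.082 over both durations, and Pck1 -0.10 to 0.25, Slc2a2 -0.52 to 0.0097 and Tat -0.036 to 0.72 in the difference between durations. They also were Pck1 -0.10 to 0.17, Foxo1 -0.40 to 0.26, G6pc -0.071 to 0.39, Slc2a2 -0.061 to 0.47 and Tat -0.071 to 0.69 at 90 against 28 days among PB livers, and Ppargc1a -0.17 to 0.44, Tat -0.31 to 0.12 and Pck1 -0.22 to 0.094 at 90 against 28 days among CMC livers. With 5 mice a group the 95% interval of a single duration was no narrower than that of Fbp1 (-0.27 to 0.27 at 28 days) and as wide as -1.39 to 1.22 for Igfbp1. The main probe sets of all 9 genes lay above the 25th percentile on all 20 arrays. The lowest single value was that of Ppargc1a in PB 28d replicate 5, at 4.94, where that percentile was 4.262. Whether compression near background entered such values was not tested.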
